A study of Mus musculus with 12 samples.

Results

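Progression from G1 into S phase was followed here through 10 genes, deposited as CCND1, CCND2, CCND3, CCNE1, CDK4, CDK6, CDKN1B, CDKN2C, CDKN2D and RB1. They were found by matching these symbols, ignoring case, to the 21497 entries of the count table, and each matched 1 entry. Cdkn1b, which encodes the kinase inhibitor p27, was the only member that passed the test in any comparison. It was 1.87-fold lower in T2F3 than in WT LSK cells and 2.11-fold lower in WT GMP than in WT LSK cells. The 3 WT LSK libraries held 79.1 to 99.2 CPM of Cdkn1b, the unit being counts scaled by library size, and the other 9 libraries 35.6 to 50.7. The cyclins, both kinases, the other inhibitors and Rb1 did not pass in any comparison by the main test, although Ccnd3, Cdkn2d and Ccne1 did so in 1 comparison each by another method or without a doubted library.

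RNA was sequenced from sorted bone marrow LSK and GMP cells of C57BL/6 mice with a donor age of 0.35 years. WT stands for wild-type animals and T2F3 for animals labelled Tet2-/-Flt3ITD, which lack the DNA-oxidising enzyme Tet2 and carry an internal tandem duplication in the receptor kinase gene Flt3; neither the breeding scheme nor the promoter of any Cre is given in the labels. LSK names the marrow fraction without lineage markers that bears Kit and Sca-1 and holds the stem and multipotent cells, and GMP the granulocyte-macrophage progenitors. The 4 groups (WT LSK, T2F3 LSK, WT GMP and T2F3 GMP) had 3 libraries each, 12 in all, and no treatment is named for any of them. No label says that replicates came from separate animals, so p-values here speak for the spread among libraries, which may be of technical origin.

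Total counts ran from 13316474 to 23536258 per library. The labels' protocol writes the LSK gate as Sca-1-negative, but Ly6a, which encodes Sca-1, was at 11.3 to 46.6 CPM in the 6 LSK libraries and 1.52 to 6.46 in the 6 GMP libraries. Fcgr3, the Fc receptor gene of the GMP gate, was at 1.19 to 5.56 CPM in LSK. In GMP it was at 94.5 to 160 CPM in WT and 24.3 to 75.9 CPM in T2F3. Kit also differed by genotype, and passed as lower in T2F3 in both populations. It was at 764 to 1003 CPM (WT) against 243 to 301 CPM (T2F3) in LSK, and 396 to 554 CPM against 217 to 237 CPM in GMP. Tet2 transcripts were present in every T2F3 library at 40.9 to 96.4 CPM, against 79.0 to 138 in WT, and gene counts without exon positions do not check the deletion. The replicate 1 libraries stood apart in coverage, with counts in 71.1 to 80.8% of entries against 83.7 to 89.8% in replicates 2 and 3.

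In G1 the D-type cyclins join the kinases CDK4 or CDK6 and phosphorylate the retinoblastoma protein RB1, which then releases E2F factors that switch on genes of DNA replication. Cyclin E, made in turn from an E2F target gene, drives CDK2 into S phase. The INK4 inhibitors, among them p18 (Cdkn2c) and p19 (Cdkn2d), block CDK4 and CDK6, whereas p27 (Cdkn1b) holds back cyclin E-CDK2. In blood-forming marrow, loss of p27 or p18 is known to enlarge progenitor or stem cell pools, and quiescent stem cells hold more p27 than cycling progenitors.

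The promoters of Cdkn1b and Ccnd3 are shown because these genes had the smallest p-values among the members in the LSK and GMP genotype comparisons. They are the 250 bases before the start sites in RefSeq (mouse GRCm38.p6, 5′ to 3′ on the gene's strand), where 7 of the 10 members had an entry. Capitals mark matches on either strand to the Sp1 box GGGCGG, the CCAAT box and the forkhead core GTAAACA. Cdkn1b lies at chr6:134920151-134920400 on the plus strand, and the windows before the 2 Ccnd3 starts lie at chr17:47504801-47505050 and chr17:47593217-47593466 on the plus strand.
Cdkn1b: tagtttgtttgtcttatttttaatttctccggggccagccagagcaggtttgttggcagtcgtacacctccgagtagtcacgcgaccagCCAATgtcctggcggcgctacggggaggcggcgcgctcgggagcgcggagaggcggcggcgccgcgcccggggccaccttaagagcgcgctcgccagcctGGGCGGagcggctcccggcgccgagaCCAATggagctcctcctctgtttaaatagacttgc
Ccnd3 start 1: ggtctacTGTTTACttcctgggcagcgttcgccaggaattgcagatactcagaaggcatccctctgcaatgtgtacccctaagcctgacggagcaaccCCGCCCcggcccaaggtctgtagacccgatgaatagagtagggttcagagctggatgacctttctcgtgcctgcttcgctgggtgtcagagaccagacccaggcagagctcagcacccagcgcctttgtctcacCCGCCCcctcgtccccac
Ccnd3 start 2: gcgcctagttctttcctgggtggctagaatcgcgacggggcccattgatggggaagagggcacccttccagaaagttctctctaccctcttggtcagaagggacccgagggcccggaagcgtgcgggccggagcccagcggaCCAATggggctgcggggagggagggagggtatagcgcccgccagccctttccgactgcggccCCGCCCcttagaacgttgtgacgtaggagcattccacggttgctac
The Cdkn1b window held an Sp1 box 61 bases before the start and CCAAT boxes at 161 and 35 bases. The window at Ccnd3 start 1 held the forkhead core on the minus strand, 243 bases before the start, and Sp1 boxes at 152 and 18 bases. That at start 2 held an Sp1 box at 46 and a CCAAT box at 108 bases. Among 32851 RefSeq windows of this length, 32.7% held the Sp1 box, 33.8% the CCAAT box and 3.17% the forkhead core on either strand, so that only the forkhead match is of an uncommon motif. The E2F motifs TTTGGCGC (in 0.417% of windows) and TTTCCCGC (0.895%), the STAT motif TTCNNNGAA (7.02%) and the cyclic AMP motif TGACGTCA (1.55%) had no match in the windows of the 7 members. A match is a string of letters and was not tested as a binding site.

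All 10 members were among the 16042 genes tested by edgeR's quasi-likelihood test, with p-values adjusted by Benjamini-Hochberg over all of them and called under 0.05. Between T2F3 and WT LSK, 0 of 10 members were higher and 1 was lower, against 2.76% and 2.44% of all genes tested. The libraries of the 2 genotypes did not overlap for 4 members (Cdkn1b, Ccnd3, Cdkn2d and Rb1, each lower in T2F3), against 27.9% of all genes. The median log2 difference of the members was -0.40, beside 0.05 for all genes. Between T2F3 and WT GMP none of the 10 passed, against 0.679% of all genes higher and 0.461% lower; 1 member, Ccnd3, had an unadjusted p under 0.05, against 13.6% of all genes, and it was also the 1 member without overlap, against 21.7%.

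Between GMP and LSK in WT, 0 members were higher and 1 was lower, against 5.72% and 7.37% of all genes, and 2 members (Cdkn1b and Cdkn2d) did not overlap, against 31.5%. Between GMP and LSK in T2F3 no member passed, none had an unadjusted p under 0.05 (7.99% of all genes did), and the corresponding shares of all genes were 0.274% higher and 0.698% lower. Ccnd3, Ccne1 and Rb1 did not overlap there, against 15.3% of all genes. The genotype effect in GMP minus that in LSK was called for no member, against 0% of all genes higher and 0.0249% lower. At an unadjusted p under 0.05 it had 2 members (Cdkn1b and Cdk4), against 9.47% of all genes. The comparisons share libraries, so they are not separate evidence, and a count of 1 in 10 shows nothing particular to these genes. By DESeq2, 1 member passed between the genotypes in GMP (Ccnd3), where 789 of the 16042 genes did. For the difference between the effects 1 member passed (Cdkn1b), beside 190 of all genes. Between WT GMP and LSK 2 members passed (Cdkn1b and Cdkn2d), beside 3225 of all genes.

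**Figure D1:**
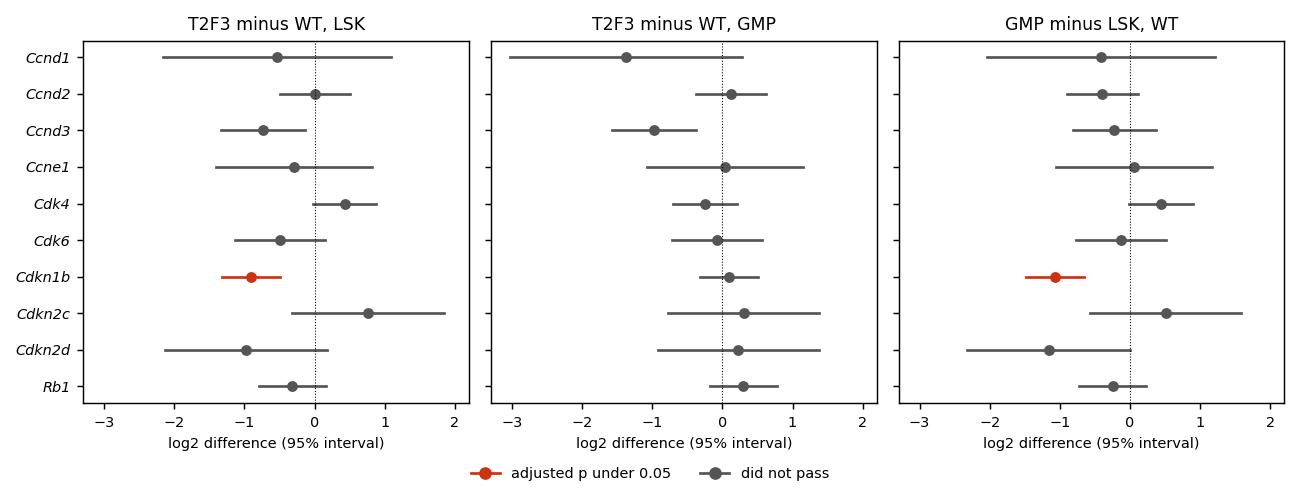
Log2 difference of each member (horizontal axis, with its 95% interval) for T2F3 minus WT in LSK, T2F3 minus WT in GMP and GMP minus LSK in WT, each over 3 libraries against 3. The red points are Cdkn1b at -0.90 in LSK and -1.07 in WT, the only ones with an adjusted p under 0.05.

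Among the D cyclins Ccnd2, a cyclin that cytokines induce in blood cells, took the most counts. It measured 643, 451 and 572 CPM in the WT LSK libraries (replicates 1, 2 and 3) against 459, 512 and 703 CPM in the T2F3 ones. The WT GMP libraries measured 365, 426 and 474 CPM against 421, 424 and 534 CPM in the T2F3 ones. The 4 groups overlapped each other. The log2 difference between T2F3 and WT was 0.01 ± 0.23 (SE) in LSK (adjusted p = 0.993) and 0.13 ± 0.23 in GMP (adjusted p = 0.890). That between GMP and LSK in WT was -0.40 ± 0.23 (adjusted p = 0.289).

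Ccnd3, the D cyclin best known from lymphoid and red cell precursors, measured 234, 145 and 111 CPM in the WT LSK libraries against 97.4, 91.4 and 105 CPM in the T2F3 ones. For GMP the values were 169, 157 and 93.5 CPM (WT) against 80.9, 67.5 and 65.9 CPM (T2F3). In both populations every T2F3 library lay under every WT library, with the WT replicates far more spread than the T2F3 replicates. The log2 difference was -0.74 ± 0.28 in LSK (95% interval -1.34 to -0.14, adjusted p = 0.141) and -0.97 ± 0.28 in GMP (-1.57 to -0.37, adjusted p = 0.125), and neither passed. In GMP the adjusted p was 0.0437 by DESeq2 and 0.0211 by limma-voom with quality weights, within a range of 0.0211 to 0.408 over 23 alternatives. The difference in LSK did not pass in any of 23 alternatives. A separate entry for the pseudogene Ccnd3-ps held 2.31 to 7.02 CPM, and the sources used here do not give how reads were divided between the 2 entries.

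Ccnd1, the D cyclin that follows growth factor and adhesion signals in many tissues, varied widely between replicates. The WT LSK libraries measured 29.5, 79.7 and 100 CPM against 53.9, 85.4 and 4.73 CPM in the T2F3 ones. The WT GMP libraries measured 31.7, 48.0 and 77.6 CPM against 12.7, 34.0 and 13.6 CPM in the T2F3 ones. The single low LSK value, of T2F3 replicate 3, rested on 115 counts against 710 and 2047 in T2F3 replicates 1 and 2. The same library stood apart in its monocyte and dendritic markers, whose sum over 12 genes was 585 CPM. The sum was 7087 and 7385 CPM in T2F3 LSK replicates 1 and 2. In WT LSK it was 498 to 777 CPM, of which Flt3 alone gave 374 to 463 CPM. The part of these markers in the Ccnd1 values was not tested. The T2F3 minus WT differences, -0.54 ± 0.75 in LSK and -1.38 ± 0.76 in GMP, did not pass (adjusted p = 0.742 and 0.480), and the GMP groups overlapped. By GENCODE vM21, 23.4% of the Ccnd1 exon bases overlap those of LTO1 on the opposite strand, and whether reads were counted by strand is, in the sources used here, not given.

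Per kilobase of exon, Ccnd2 made up most of the D cyclin counts in every library. Its share was 67.5, 58.9 and 64.2% (WT) against 68.4, 65.6 and 85.2% (T2F3) in LSK, and 59.8, 61.7 and 65.0% (WT) against 79.0, 75.1 and 84.5% (T2F3) in GMP. In GMP the genotypes did not overlap, at 62.2 ± 2.62% in WT and 79.5 ± 4.71% in T2F3 (mean and SD, n = 3), but an exact permutation test of 3 libraries against 3 cannot give a two-sided p under 10%. In LSK they overlapped, at 63.5 ± 4.35% and 73.1 ± 10.6%. In GMP the mean share of Ccnd1 was 15.2% in WT and 7.04% in T2F3, and that of Ccnd3 was 22.6% and 13.4%. The level of Ccnd2 itself did not differ between the genotypes in GMP by the main test. The shares use exon lengths of GENCODE vM21 (4709 bases for Ccnd1, 9409 for Ccnd2 and 8775 for Ccnd3), which is not the build of the counts.

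**Figure D2:**
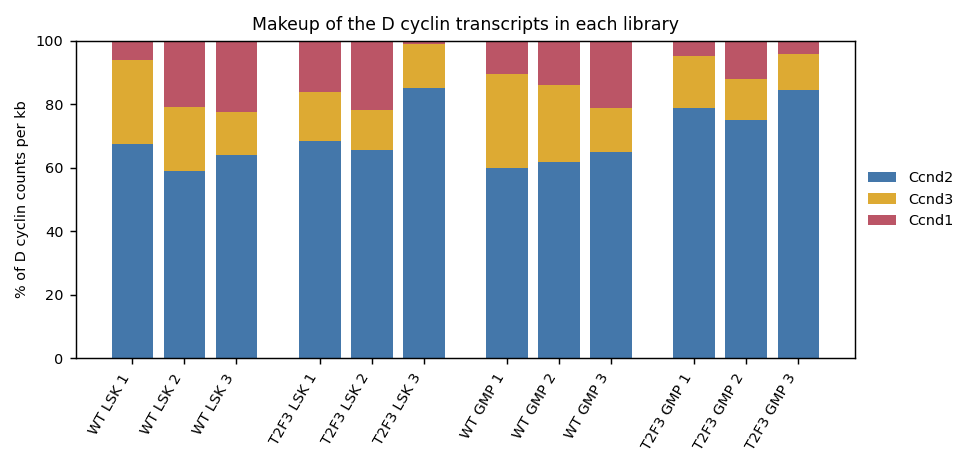
Share of Ccnd1, Ccnd2 and Ccnd3 in the summed D cyclin counts per kilobase of exon (vertical axis, percent), 1 bar for each of the 12 libraries. Ccnd2 takes 58.9 to 85.2% of each bar, and Ccnd1 takes only 1.15% in T2F3 LSK replicate 3.

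The kinases were expressed in every library. Cdk6, the D cyclin partner prominent in blood-forming cells, was at 778, 623 and 568 CPM (WT) against 279, 480 and 643 CPM (T2F3) in LSK, and 579, 618 and 605 CPM (WT) against 535, 441 and 732 CPM (T2F3) in GMP. T2F3 LSK replicate 1 had the lowest value of all, and the genotypes overlapped in both populations. The log2 difference between T2F3 and WT was -0.49 ± 0.30 in LSK (adjusted p = 0.372), and the adjusted p was at least 0.196 in the 23 alternatives.

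Cdk4, the widely expressed partner, measured 137, 170 and 199 CPM in the WT LSK libraries against 261, 178 and 240 CPM in the T2F3 ones. For GMP the values were 248, 251 and 187 CPM (WT) against 199, 193 and 185 CPM (T2F3), the tightest of these groups. The difference was 0.43 ± 0.21 in LSK (adjusted p = 0.260) and -0.25 in GMP (adjusted p = 0.684), and the effect in GMP minus that in LSK was -0.67 ± 0.29 (unadjusted p = 0.0400, adjusted p = 0.519). Exons of Tspan31 on the opposite strand cover 19.7% of the Cdk4 exon bases. The Tspan31 entry itself held 20.4 to 162 CPM, and its part in the Cdk4 values was not tested. The ratio of Cdk6 to Cdk4 per kilobase was 1.32, 0.852 and 0.663 in WT LSK and 0.248, 0.626 and 0.622 in T2F3 LSK, so every T2F3 LSK library lay under every WT LSK library. The nearest values of the genotypes were 0.663 and 0.626, and the permutation limit given for the Ccnd2 share applies here too. In GMP the ratio overlapped, at 0.542, 0.572 and 0.752 in WT and 0.623, 0.531 and 0.916 in T2F3.

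Cdkn1b measured 80.9, 79.1 and 99.2 CPM in the WT LSK libraries against 45.0, 50.7 and 42.7 CPM in the T2F3 ones. The WT GMP libraries measured 50.2, 37.3 and 35.6 CPM against 42.7, 46.2 and 42.9 CPM in the T2F3 ones. The WT LSK libraries stood above all others, and the remaining 3 groups overlapped each other. How many of all genes share this pattern of Cdkn1b was not counted. The T2F3 minus WT difference in LSK was -0.90 ± 0.19 (95% interval -1.32 to -0.49, adjusted p = 0.0205), lower in 3 of 3 T2F3 libraries than in any WT library. In GMP it was 0.10 ± 0.19 (adjusted p = 0.895). GMP minus LSK was -1.07 ± 0.19 in WT (-1.49 to -0.66, adjusted p = 0.00341) and -0.07 ± 0.19 in T2F3 (adjusted p = 1). The genotype effect in GMP minus that in LSK was 1.00 ± 0.27 (0.42 to 1.59), with an adjusted p of 0.280 by edgeR and 0.0296 by DESeq2, in a range from 0.0296 to 1 over 23 alternatives. The effects in the 2 populations are therefore not shown to differ by the main test.

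The WT difference in Cdkn1b between GMP and LSK passed in 24 of 24 alternatives, and the genotype difference in LSK in 17 of 23. The latter lost its call without WT LSK replicate 2 (adjusted p = 0.0509) or 3 (0.0612), without T2F3 LSK replicate 1 (0.0820) or 3 (0.0652), without both T2F3 replicate 1 libraries (0.0995), and with the letters of the library code as a block (-0.77 ± 0.25, 0.234). The labels do not say what the codes mean. Only 1 code occurs in both LSK genotypes, and within it Cdkn1b was at 80.9 CPM in WT replicate 1 and 50.7 CPM in T2F3 replicate 2. Over all alternatives the log2 difference stayed between -0.97 and -0.77.

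Cell type markers differed between the same LSK groups as well, though not every list did so in every library. The summed level of 10 stem and multipotent markers was 699 to 1043 CPM (WT) against 213 to 325 CPM (T2F3) in LSK, and 53.8 to 96.7 CPM (WT) against 60.1 to 71.1 CPM (T2F3) in GMP. Of these, 3 passed as lower in T2F3 LSK, and Slamf1 was at 0 in T2F3 LSK replicate 1. Of 12 erythroid markers 11 were tested and 8 passed as lower, with sums of 539 to 904 CPM in WT LSK against 62.2 to 146 in T2F3 LSK, and Klf1 was at 0 in T2F3 LSK replicate 3. Of 8 megakaryocyte markers 6 were tested and 3 were lower (232 to 254 against 29.8 to 49.1 CPM). Of 12 monocyte and dendritic markers 6 were higher. Their sums overlapped, at 498 to 777 CPM in WT LSK against 7087, 7385 and 585 CPM in T2F3 LSK replicates 1, 2 and 3. Flt3 alone gave 374 to 463 CPM of the WT LSK sums and 188 CPM of that of T2F3 LSK replicate 3. In this replicate Cd74 was at 124 CPM, above the 29.2 to 61.7 CPM of WT LSK. H2-Aa was there at 71.4 CPM, within the 12.5 to 88.3 CPM of WT LSK. Of 10 GMP markers 2 were higher and 1 was lower. Their sums were 2086 to 3250 CPM in WT LSK against 3812 to 5677 CPM in T2F3 LSK. Over all genes tested, 2.76% were higher and 2.44% lower in T2F3 LSK. The part of these markers in the Cdkn1b difference was not tested, and in bulk RNA fewer cells of a type and less RNA per cell cannot be told apart.

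Markers moved with genotype in GMP as well, beside the values of Ccnd3, the Ccnd2 share and E2f8 in those libraries. The summed level of 6 mast cell and basophil markers was 980 to 1330 CPM in WT GMP against 94.4 to 127 CPM in T2F3 GMP, with 4 of 6 called as lower. That of 12 monocyte and dendritic markers was 130 to 193 CPM against 1000 to 3422 CPM, with 5 called as higher, and that of 10 GMP markers was 21735 to 55078 CPM against 10219 to 20816 CPM, with 1 called as lower. The erythroid sum was 73.9 to 99.5 CPM in WT GMP against 13.9 to 20.4 CPM in T2F3 GMP, with 4 of 11 tested markers called as lower. The megakaryocyte sum was 82.8 to 134 CPM against 16.9 to 27.9 CPM, with 1 of 6 tested markers called as lower. Over all genes tested, 0.679% were higher and 0.461% lower in T2F3 GMP. Batf3 was at 0 in WT GMP replicates 1 and 2. The part of these markers in the GMP differences was not tested.

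**Figure D3:**
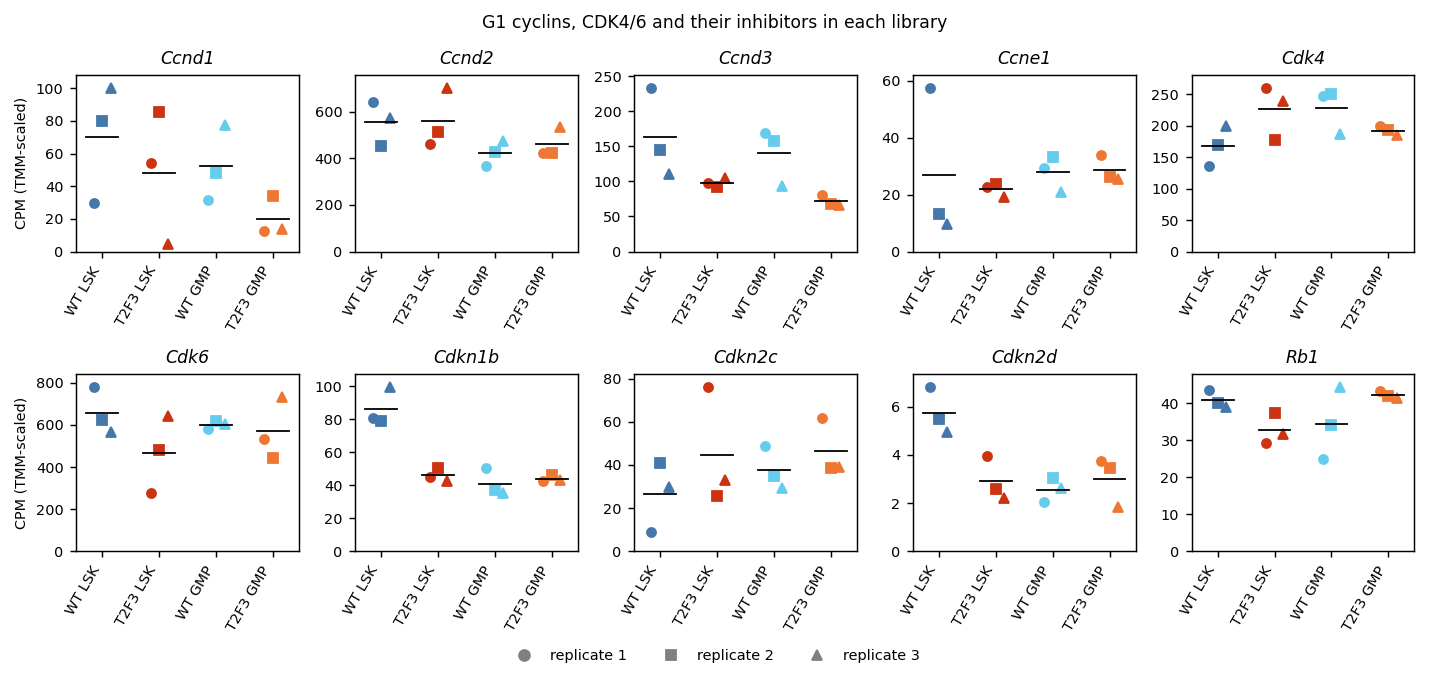
CPM of each member (vertical axes from 0, scaled per gene) in the 3 libraries of the 4 groups, with marker shapes for replicate numbers and a line at each group's mean. For Cdkn1b the WT LSK libraries lie at 79.1 to 99.2 CPM and all others at 35.6 to 50.7, whereas Ccnd1, Ccne1 and Cdkn2c each have 1 LSK library far from the other 2 of its group.

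Of the INK4 inhibitors, Cdkn2c (p18) measured 8.90, 40.8 and 29.6 CPM in the WT LSK libraries against 75.9, 25.6 and 32.8 CPM in the T2F3 ones. For GMP the values were 48.7, 35.01 and 29.2 CPM (WT) against 62.0, 38.5 and 39.3 CPM (T2F3). Replicate 1 was the outlying library of either LSK group, low in WT and high in T2F3, and the groups overlapped. The log2 difference in LSK was 0.76 ± 0.50 (adjusted p = 0.420). Cdkn2d (p19) took the fewest counts, at 6.79, 5.49 and 4.95 CPM (WT) against 3.95, 2.59 and 2.22 CPM (T2F3) in LSK, and 2.03, 3.04 and 2.62 CPM (WT) against 3.74, 3.46 and 1.82 CPM (T2F3) in GMP. As for Cdkn1b, the WT LSK libraries were above the other 9, and the share of all genes with this pattern was not counted. Neither its genotype difference in LSK (-0.98 ± 0.53, adjusted p = 0.317) nor its WT difference between GMP and LSK (-1.16 ± 0.54, adjusted p = 0.176) passed by edgeR, and the latter had an adjusted p of 0.0427 by DESeq2.

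Rb1, which encodes the pocket protein that the D cyclin kinases inactivate, ranged from 25.02 to 44.2 CPM over all libraries. It measured 43.5, 40.1 and 39.0 CPM in the WT LSK libraries against 29.3, 37.4 and 31.7 CPM in the T2F3 ones. For GMP the values were 25.02, 34.1 and 44.2 CPM (WT) against 43.3, 41.9 and 41.5 CPM (T2F3). The T2F3 LSK libraries were all under the WT LSK libraries and under the T2F3 GMP libraries, but the genotype difference in LSK was -0.32 ± 0.22 (adjusted p = 0.451) and that between GMP and LSK in T2F3 was 0.36 (adjusted p = 0.930). Rcbtb2 and Lpar6 on the opposite strand cover 8.11% and 6.78% of the Rb1 exon bases.

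Ccne1, the cyclin E gene, measured 57.5, 13.2 and 9.61 CPM in the WT LSK libraries against 22.6, 23.6 and 19.2 CPM in the T2F3 ones. For GMP the values were 29.4, 33.1 and 20.8 CPM (WT) against 34.0, 26.2 and 25.6 CPM (T2F3). WT LSK replicate 1 was above every other library and WT LSK replicates 2 and 3 were below every other library, so the genotype difference in LSK was poorly measured at -0.30 ± 0.52 (adjusted p = 0.805). Without WT LSK replicate 1 the GMP minus LSK difference in WT was 1.28 with an adjusted p of 0.0185, without both WT replicate 1 libraries it was 1.22 (0.0336), and by limma-voom with quality weights 1.17 (0.0216). By the main test with all libraries this Ccne1 difference was 0.05 ± 0.51 and did not pass. Over 24 alternatives it ranged from -0.36 to 1.28, passed in 3 and had the opposite sign in 5.

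Per kilobase of exon, 3 members led in WT LSK, namely Ccnd2 at 59.0 ± 10.3 CPM per kb (mean and SD, n = 3), Cdk4 at 51.9 ± 9.62 and Cdk6 at 46.9 ± 7.79, and these did not differ beyond their spread. Then came Cdkn1b at 19.0 ± 2.45, Ccnd3 at 18.6 ± 7.22 and Ccnd1 at 14.8 ± 7.73 CPM per kb, whose ranges overlapped each other. Ccne1 at 10.1 ± 10.0, Cdkn2c at 9.84 ± 6.03 and Rb1 at 6.80 ± 0.390 CPM per kb had the lowest means, but the range of Ccne1 overlapped those of Cdkn1b, Ccnd3 and Ccnd1, and that of Cdkn2c overlapped those of Ccnd3 and Ccnd1. In T2F3 GMP the leading genes were Cdk4 (59.3 ± 2.13), Ccnd2 (48.9 ± 6.83) and Cdk6 (40.7 ± 10.6 CPM per kb), and Ccnd1 was lowest at 4.27 ± 2.56. Cdkn2d had no exon length under its deposited identifier and is left out.

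The other genes of the pathway were read from 6 lists. Among the other inhibitors none passed. Cdkn1a (p21) differed by 0.18 ± 0.38 between T2F3 and WT LSK (adjusted p = 0.847). Cdkn1c (p57), a marker of quiescent stem cells, had 0, 44 and 22 counts (WT) against 21, 15 and 28 (T2F3) in LSK, and 0, 0 and 2 counts (WT) against 3, 16 and 17 (T2F3) in GMP, and did not pass between GMP and LSK in WT (adjusted p = 0.0599). Cdkn2a (p16 and p19Arf) had 15 counts in WT LSK replicate 3, 1 count in T2F3 LSK replicate 3 and 0 elsewhere, where the limit of 3 counts is 0.112 to 0.228 CPM, and was too scarce to test. Cdkn2b was not analysed here.

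Of the 12 other pocket protein and E2F genes, none passed between the LSK genotypes. In T2F3 GMP, where 0.461% of all genes were lower, 1 was lower, the repressor E2f8. It measured 109, 154 and 134 CPM (WT) against 69.4, 76.4 and 66.7 CPM (T2F3) in GMP (-0.90 ± 0.19, adjusted p = 0.0410), and it passed in 11 of 23 alternatives. The cell type markers given above for GMP moved in the same libraries. Its call was lost without WT LSK replicate 2 or 3, T2F3 LSK replicate 2, WT GMP replicate 2 or 3, or any 1 of the T2F3 GMP libraries. Between GMP and LSK in WT, 5.72% of all genes were higher and 7.37% lower. There the activator E2f1 (1.28 ± 0.29, adjusted p = 0.0121) and its partner Tfdp1 (1.00 ± 0.20, 0.00549) were higher, and Tfdp2, another partner, was lower (-1.12 ± 0.25, 0.0113). Without both WT replicate 1 libraries none of these 3 passed. Of the 13 other G1/S genes only Skp2, part of the ligase that marks p27 for degradation, passed, and only between GMP and LSK in WT (0.77 ± 0.22, adjusted p = 0.0398). Its call was lost in 16 of 24 alternatives.

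The list of E2F target genes of DNA replication held 28 genes. Its median difference between T2F3 and WT was 0.45 in LSK and -0.09 in GMP, beside 0.05 and 0.02 for all genes, and none of the 28 passed in GMP or for the difference between the effects. Between GMP and LSK in WT, 5 of 28 were higher and none lower (median 0.52, with 5.72% of all genes higher), among them Mcm5 (1.03 ± 0.24, adjusted p = 0.0143), Rrm2 (1.11 ± 0.26, 0.0152), Tk1 (1.06 ± 0.25, 0.0138) and Cdc45 (2.30-fold, 0.0329). Leaving out WT LSK replicate 2 brought this count to 2, leaving out WT LSK replicate 3 to 1, leaving out WT GMP replicate 1 to 0 and leaving out both WT replicate 1 libraries to 1.

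Of 25 mitotic genes, 4 were higher in T2F3 LSK, where 2.76% of all genes were, namely the checkpoint kinase Bub1b (0.93 ± 0.23, adjusted p = 0.0344), the kinesin Kif20a (0.73 ± 0.18, 0.0352), the centrosome kinase Nek2 (1.25 ± 0.31, 0.0394) and the spindle factor Tpx2 (0.72 ± 0.19, 0.0491). Bub1b measured 76.4, 74.6 and 71.8 CPM (WT) against 124, 142 and 159 CPM (T2F3) in LSK. The median of the list was 0.51 in LSK and 0.26 in GMP, where none passed. The LSK count of 4 was not stable. It came to 0 when any 1 of the WT LSK libraries, T2F3 LSK replicate 3 or T2F3 GMP replicate 2 was left out, to 1 when T2F3 LSK replicate 1 or 2 was left out, and to 2 when replicate 2 or 3 of WT GMP or replicate 1 or 3 of T2F3 GMP was left out. It was 7 by DESeq2 and by limma-voom. Between GMP and LSK in WT, where 5.72% of all genes were higher, Aurkb (0.77 ± 0.18, 0.0132) and Bub1b (0.79 ± 0.23, 0.0356) were higher, 2 of the 25. This count was 1 without WT LSK replicate 1 or 3, WT GMP replicate 1 or 2 or T2F3 GMP replicate 2. With the title stem as a block, which pairs LSK with GMP libraries, the count was 4, by limma-voom it was 5, and it was 0 both without the WT replicate 1 libraries and when blocked by library code.

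Among 18 regulators upstream of the D cyclins and p27, 3 were higher and 4 lower in T2F3 LSK, and 3 were higher and none lower in T2F3 GMP. Of all genes, 2.76% were higher and 2.44% lower in T2F3 LSK, and 0.679% and 0.461% in T2F3 GMP. The higher genes in LSK were the cytokine signalling inhibitors Socs2 and Cish and the kinase Pim2, all known STAT5 targets. Socs2 measured 1.58, 1.57 and 0.961 CPM (WT) against 113, 127 and 147 CPM (T2F3) in LSK (adjusted p = 4.21e-06). In GMP it had 0, 0 and 1 counts in WT and 860, 2443 and 1285 counts in T2F3 (adjusted p = 5.43e-07). Cish was 7.40-fold higher in T2F3 LSK (2.89 ± 0.34, adjusted p = 0.00117) and 15.7-fold higher in T2F3 GMP (3.98 ± 0.37, 2.66e-04), and Pim1 was 3.36-fold higher in T2F3 GMP (1.75 ± 0.20, 0.00121). The Socs2 calls held in every alternative run, as did those of Cish and Pim1 in GMP, that of Cish in LSK in 22 of 23, and that of Pim2 in LSK in 14 of 23.

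The lower regulators in T2F3 LSK were the forkhead factors Foxo1 and Foxo3, which are known activators of the p27 gene, and Stat5a and Stat5b. Foxo3 measured 587, 474 and 440 CPM in the WT LSK libraries against 177, 235 and 267 CPM in the T2F3 ones (-1.14 ± 0.20, adjusted p = 0.00978). For GMP the values were 180, 206 and 217 CPM (WT) against 183, 162 and 185 CPM (T2F3), so that, as for Cdkn1b, the 3 WT LSK libraries stood above the other 9. The share of all genes with this pattern was not counted, and a link between Foxo3 and Cdkn1b was not tested. Stat5a measured 293, 276 and 218 CPM (WT) against 118, 134 and 136 CPM (T2F3) in LSK (-1.02 ± 0.19, adjusted p = 0.0134). The count of 4 was 1 without WT LSK replicate 2 or T2F3 LSK replicate 1, 2 without WT LSK replicate 1, T2F3 LSK replicate 2 or 3 or T2F3 GMP replicate 2, and 0 without both T2F3 replicate 1 libraries or when the letters of the code were a block. Foxo3 itself lost its call only without both T2F3 replicate 1 libraries (adjusted p = 0.0634) and with the code as a block (0.157). Foxo1 lost its call in LSK in 16 of 23 alternatives, Stat5b in 11 and Stat5a in 4. Between GMP and LSK in WT 8 of the 18 were lower and none higher, against 7.37% and 5.72% of all genes. The lower ones included Foxo3 (-1.31 ± 0.20, adjusted p = 0.00153), Mycn (-6.80 ± 0.77, 2.63e-04) and Pim1 (-1.67 ± 0.20, 3.35e-04). In T2F3 Mycn and Pim2 were lower, against 0.698% of all genes. For the difference between the genotype effects none of the 18 passed.

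**Figure D4:**
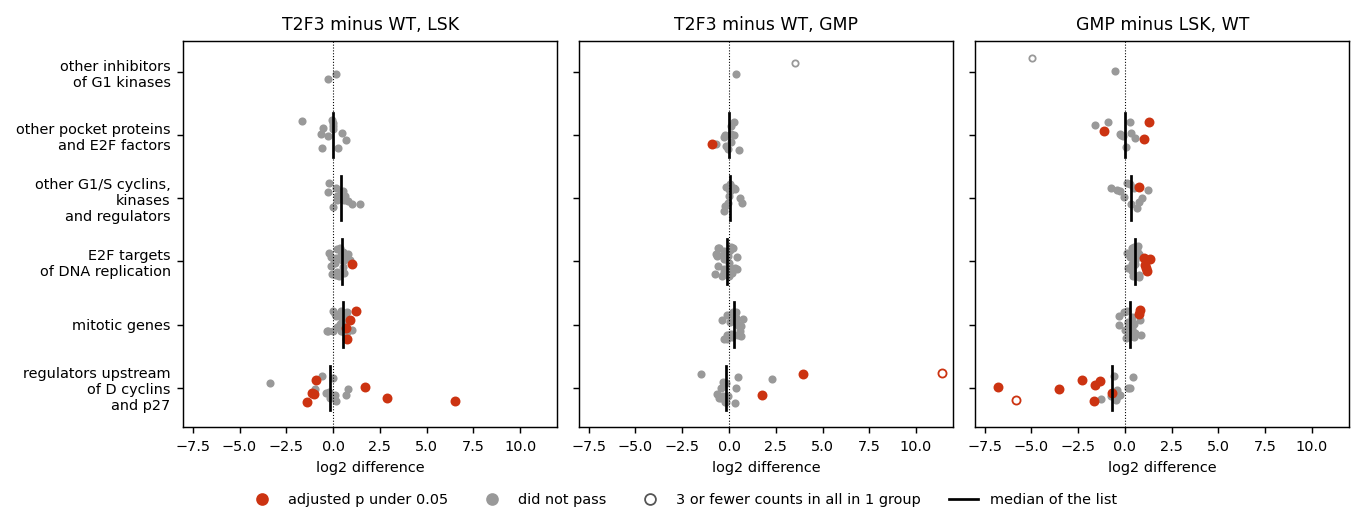
Log2 difference (horizontal axis) of each tested gene of the 6 lists in 3 comparisons, 1 point per gene, with a bar at the median of each list with more than 2 genes. Open symbols mark genes with 3 or fewer counts in all in 1 group, whose fitted values depend on the prior count, such as Socs2 in WT GMP. The red points show the called genes, among the regulators 3 higher and 4 lower in LSK.

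The genes whose levels followed the D cyclins and Cdk6 most closely across the 12 libraries were found among 9964 named genes by Pearson's r of log2 CPM, as a description. The libraries fall into 4 groups and share title stems, so these are no independent points. For Ccnd3 the closest genes were Zbtb12 (r = 0.973), Plcg2 (0.945) and Irf2bp1 (0.943). For Ccnd2 the closest genes were Fam185a (0.944), Enpp4 (0.916) and Ptpn3 (0.914), and for Cdk6 they were Slc38a1 (0.943), Rcor1 (0.929) and Ago2 (0.927). Those for Ccnd1 were Stx3 (0.827), Pdzd4 (0.823) and Slc25a25 (0.796).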

How the data were processed

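Per the labels' protocols, LSK and GMP cells were sorted from lineage-depleted marrow, RNA was extracted in Trizol, ribosomal RNA was depleted, and libraries were made with an Ion Torrent total RNA kit. The submitters' processing notes name cutadapt 1.2rc2, TopHat2, BWA 0.5.9, Picard, HTSeq and the mm9 build; the sources used here do not give their roles, the annotation or the strand setting. The authors deposited raw gene counts for all libraries in 1 table, without normalization. Of its 21497 entries, 366 were at 0 throughout.

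From these counts, genes were kept by filterByExpr (minimum count 10, 16042 genes), TMM size factors were applied, and differences were tested with edgeR 4.0.16 in R 4.3.3 (glmQLFit and glmQLFTest), fitting 1 mean per group over the 12 libraries with 8 residual degrees of freedom. The Benjamini-Hochberg adjustment was made over all genes of a comparison, in 5 comparisons, with a threshold of 0.05. CPM use the TMM-scaled library sizes, SE is that of the log2 difference, and intervals are at 95%. A count of 0 allows up to 3 counts, and this limit covers counting error only. Within groups no pair of libraries was alike within sampling noise (chi-square divided by its degrees of freedom, 78.3 to 416). The code was tested on simulated counts.

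The members, the gene and marker lists, the tests and the alternatives were chosen with earlier results of these data known. The text names the 10 members in every comparison, the called members of the 3 lists nearest to them, and from each list up to 4 genes per comparison, of at least 1 CPM, by smallest p. It also names genes of the label checks, and 3 genes of highest correlation for each of the D cyclins and Cdk6. Genes named for exon overlap or as single markers, and the setting of Foxo3 beside Cdkn1b, were chosen after their values were seen. A few single-gene results of the lists are not reported here.

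LSK and GMP libraries share title stems. Deviations from the group means correlated at 0.121 to 0.392 for libraries with the same stem, over 0.1 in each of 6 pairs, so the stem was used as a block in an alternative for comparisons of GMP with LSK. It changed no call of a member. Alternatives were RLE scaling, library sizes without abundant RNA classes, a filter of 5 CPM in 3 libraries, none at all, DESeq2 1.42.0, limma-voom with quality weights (limma 3.58.1), blocks by replicate number, stem and library code, only the 2 groups compared, and leaving out each library or both replicate 1 libraries of a genotype.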

Additional observations from a re-analysis of the deposited data

How the results depend on the processing

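No difference of a member that the main test called changed direction in any alternative run. Among the members, 1 was called in LSK, 0 in GMP, 0 for the difference between the effects, 1 between GMP and LSK in WT and 0 in T2F3. DESeq2 gave 1, 1, 1, 2 and 0 in that order, and limma-voom 1, 1, 0, 2 and 0. The library code as a block gave 0 in LSK and 1 in WT, leaving out both T2F3 replicate 1 libraries 0 in LSK, and leaving out both WT replicate 1 libraries 2 in WT. Leaving out 1 library gave 0 to 1 in LSK and 1 to 2 in WT. Cdkn1b in LSK depends on a spread estimated from 3 libraries a group. Cdkn2d, at under 10 CPM, is measured with wide intervals (SE 0.53 for the genotype difference in LSK). So are Ccnd1 (0.75), Ccne1 (0.52) and Cdkn2c (0.50), whose mean levels are higher.

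Over all genes the main counts were 834 in LSK, 183 in GMP, 4 for the difference, 2100 in WT and 156 in T2F3, with 3451, 2176, 1519, 4535 and 1281 at an unadjusted p under 0.05. In that order DESeq2 gave 1919, 789, 190, 3225 and 522, limma-voom 1339, 832, 23, 3186 and 561, and the library code as a block 18, 39, 0, 974 and 0. RLE scaling gave 6 for the difference, the 5 CPM filter 7, and no filter 6. Fits of only the 2 groups gave 474 in LSK, 124 in GMP, 1188 in WT and 228 in T2F3. Without both T2F3 replicate 1 libraries the counts were 136, 60, 0, 1768 and 11, and without both WT replicate 1 libraries 735, 194, 1, 1296 and 413. Leaving out 1 library gave 229 to 1094, 55 to 250, 0 to 10, 1234 to 2090 and 47 to 256. With the replicate number as a block they were 907, 185, 6, 2204 and 182, with Cdkn1b called in LSK and WT as before; across genotypes the libraries share only the number (correlations from -0.0016 to 0.193). With the title stem as a replicate block they were 2354 in WT, 194 in T2F3 and 0 for the difference, and Cdkn1b was the only member called, in WT.

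Without per-length scaling, an alternative chosen after seeing the data, the mean share of Ccnd2 in the D cyclins was 70.2% (WT) against 78.7% (T2F3) in LSK, and 68.5% (WT) against 83.2% (T2F3) in GMP.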
